A study of Mus musculus with 6 samples.

Results

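Adipokines are the proteins through which fat signals to other organs and to its own cells. The 10 genes described here are Lep, Adipoq, Retn, Rbp4, Nampt, Apln, Rarres2, Lcn2, Nrg4 and Metrnl. They were taken by name from an expression table of 21959 rows, each member matched 1 row, and all 10 passed the filter on low counts that left 13566 genes for testing. The table comes from RNA sequencing of white adipose tissue of mice, placed in the gonadal depot by the series text. It holds 3 wild-type libraries (WT replicates 10, 11 and 12) and 3 libraries of the genotype labelled ++Oxtr (replicates 7, 8 and 9), whose name points to the gene of the oxytocin receptor. The column headers of the ++Oxtr libraries carry the letters tg. The sources used here do not give the construct behind ++Oxtr, its promoter, the strain, the sex, age and diet of the mice or any treatment that both groups share. The study asks how this receptor bears on adipose development and energy metabolism, and the comparison made here is the level of the adipokine transcripts in ++Oxtr against WT fat.

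Leptin (Lep) is released by adipocytes in proportion to fat stores and acts on the hypothalamus to limit food intake, while adiponectin (Adipoq) is an abundant adipocyte hormone that sensitises tissues to insulin. Resistin (Retn) is made by mouse adipocytes and opposes insulin action. Retinol binding protein (Rbp4) carries vitamin A in blood, and lipocalin (Lcn2) is a protein of the same fold that binds iron-carrying siderophores and is also made by epithelia and neutrophils. Visfatin (Nampt) is the enzyme that starts nicotinamide salvage to NAD, apelin (Apln) is a vascular peptide, and chemerin (Rarres2) is a chemoattractant that is activated by proteolysis. Neuregulin 4 (Nrg4) is an ERBB ligand known from brown fat, and meteorin-like (Metrnl) is a circulating protein linked to beige fat and muscle. In the annotation deposited with the table all 10 were placed in the extracellular space, 5 (Lep, Adipoq, Retn, Apln and Metrnl) carried the term hormone activity, and 2 (Lep and Adipoq) belonged to the adipocytokine signalling pathway.

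The libraries held 14314517 to 19186696 counts. Oxtr ranged from 22.0 to 61.3 CPM (counts scaled by the library total with TMM factors) in WT and from 81.8 to 90.6 CPM in ++Oxtr, with no overlap; its log2 fold change was 1.03 (SE 0.34), and the quasi-likelihood test of edgeR gave an adjusted p of 0.469. The 15 adipocyte markers summed to 73880 to 82890 CPM in WT and 79540 to 99640 CPM in ++Oxtr. Much of this was the desaturase Scd1, at 29600 to 60080 CPM. The markers were not all abundant, with Cidea at 3.37 to 14.2 CPM. As a sum they matched the labelled tissue. Plin1, a lipid droplet coat protein, was at 1728 to 2460 CPM over the 6 libraries. Plin4, a further coat protein, was at 3493, 4420 and 3558 CPM in WT and at 3069, 2190 and 2205 CPM in ++Oxtr, with no overlap, a log2 fold change of -0.62 (SE 0.18) and an adjusted p of 0.412 in edgeR and 0.0287 in DESeq2. The DESeq2 call of Plin4 was not checked with a library left out. Epithelial markers, among them Epcam, were not even across libraries and are given with Lcn2. In whole tissue, fewer cells of a type and less RNA per cell cannot be told apart.

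Promoter sequences were held for 9 of the 10 members in the RefSeq table on GRCm38.p6, the exception being Rarres2. Those of Lep (the adipocyte hormone with the widest spread between libraries), Adipoq (the one with the narrowest) and Rbp4 (the member with the smallest p) are printed from 250 bases before to 50 after the annotated start, 5′ to 3′ on the gene's strand. For Rbp4 the table has 2 starts; the downstream one is shown, and the window of the other held 1 CCAAT and 1 C/EBP match. Capitals mark every match, on either strand, to the C/EBP pattern TTNNGNAA, the CCAAT box CCAAT, the TATA box TATAAA or the hypoxia response core ACGTG.
Lep, chr6:29059971-29060270, plus strand: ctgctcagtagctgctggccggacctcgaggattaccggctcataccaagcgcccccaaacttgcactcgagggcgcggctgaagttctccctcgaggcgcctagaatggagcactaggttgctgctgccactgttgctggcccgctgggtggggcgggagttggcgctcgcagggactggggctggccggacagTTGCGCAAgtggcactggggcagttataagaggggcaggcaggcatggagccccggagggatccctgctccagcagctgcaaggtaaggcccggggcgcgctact
Adipoq, chr16:23146286-23146585, plus strand: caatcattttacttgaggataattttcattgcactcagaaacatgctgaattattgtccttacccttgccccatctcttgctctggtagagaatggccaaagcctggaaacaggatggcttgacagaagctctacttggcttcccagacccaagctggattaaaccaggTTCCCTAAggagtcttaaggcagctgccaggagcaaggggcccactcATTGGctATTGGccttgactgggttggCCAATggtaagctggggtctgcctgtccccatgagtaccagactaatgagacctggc
Rbp4, chr19:38124762-38125061, minus strand: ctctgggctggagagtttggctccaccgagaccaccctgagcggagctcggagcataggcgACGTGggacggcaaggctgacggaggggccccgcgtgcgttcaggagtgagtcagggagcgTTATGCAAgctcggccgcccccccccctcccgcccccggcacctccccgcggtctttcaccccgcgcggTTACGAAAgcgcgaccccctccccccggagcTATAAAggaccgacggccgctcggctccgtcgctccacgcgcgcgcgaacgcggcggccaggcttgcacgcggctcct

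The Lep window held 1 C/EBP match, 55 bases before the start, in a sequence of 66% GC with 19 CpG dinucleotides. The Adipoq window held 3 CCAAT matches and 1 C/EBP match, at 50% GC and with 0 CpG. The Rbp4 window held a TATA box 28 bases before the start, 2 C/EBP matches and 1 hypoxia response core, at 72% GC and with 40 CpG. Over all 32851 promoters of this length the median was 52.7% GC with 7 CpG. The C/EBP pattern was found in 5 of the 9 genes (Adipoq, Lcn2, Lep, Nrg4 and Rbp4) and in 40.7% of all promoters. The CCAAT box was found in 2 genes and 37.4% of promoters, the hypoxia core in 3 genes and 19.6%, and the TATA box in 1 gene and 13.6%. The patterns do not overlap one another in the printed windows, and a match is a description of letters only.

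The transcripts of the C/EBP factors themselves differed in their spread. Cebpa, which maintains the adipocyte state, was at 701.3, 801.9 and 717.8 CPM in WT and 798.6, 781.8 and 507.7 CPM in ++Oxtr. Cebpb, an early inducer of adipocyte genes, was at 10.1, 12.3 and 12.1 CPM in WT and 28.1, 18.0 and 55.4 CPM in ++Oxtr, with no overlap between groups. Its log2 fold change was 1.56 (SE 0.40). The adjusted p was 0.393 in edgeR, and DESeq2 passed it at 0.00386. The DESeq2 call was lost without WT replicate 10 (adjusted p = 0.0672) or WT replicate 12 (0.0601). Cebpd, which acts early beside Cebpb, was at 37.2, 38.7 and 60.0 CPM in WT and at 53.9, 23.2 and 139.3 CPM in ++Oxtr, with overlapping groups and a log2 fold change of 0.67 (SE 0.61). Which genes any of these factors bound was not measured.

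Levels between genes are compared per length, as the deposited FPKM, which scale a gene's fragments by its length and by the library total. Adipoq led the members in all 6 libraries at 1634 to 2044 FPKM, and its mean was the 14th highest of all rows. Retn was second in all 6, at 445.5 to 827.3 FPKM, and the 37th of all rows. Together the members took 0.406% to 0.48% of all counts of a library.

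Below Retn the order was not the same in each library. Rbp4, at 125.8 to 203.3 FPKM, lay above Lep in WT replicate 10 and in all 3 ++Oxtr libraries and below it in WT replicates 11 and 12. Lep spanned 18.0 to 200.1 FPKM, so its place among the members ran from just below Retn to below Rarres2 and Nrg4. Nampt was at 34.6 to 63.3 FPKM, Rarres2 at 20.2 to 36.2 and Nrg4 at 12.4 to 25.4. Apln (8.99 to 14.5 FPKM) and Metrnl (9.74 to 13.1 FPKM) overlapped each other and did not differ beyond their spread. Lcn2 was the lowest member on average, at 1.35 to 15.3 FPKM.

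**Figure D1:**
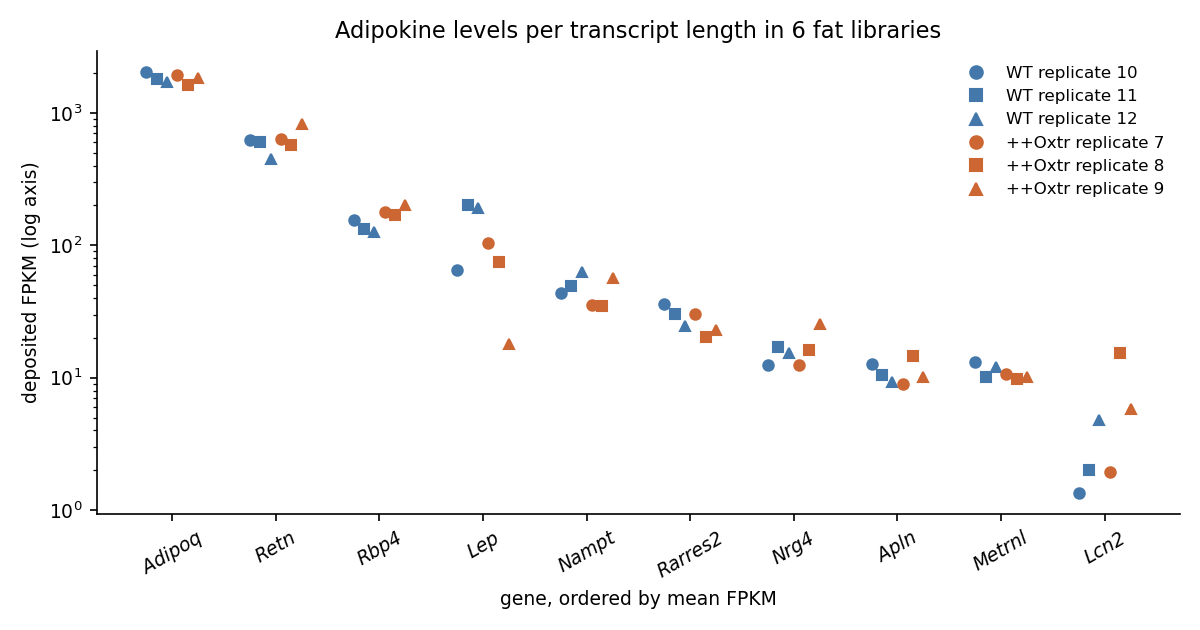
Deposited FPKM (log axis) of the 10 adipokine genes, ordered by their mean, with 1 point per library (blue WT, orange ++Oxtr). Adipoq and Retn lie above all other members in every library, while Lep and Lcn2 each spread over about a decade.

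By edgeR 0 of the 10 members passed an adjusted p of 0.05, against 0 of 13566 genes (0%) over the whole table. At an unadjusted p under 0.05, 1 member (Rbp4) was on the higher side in ++Oxtr and 0 on the lower side, where 4.44% and 4.47% of all tested genes were. The groups did not overlap in 1 member, again Rbp4, which was higher in ++Oxtr, against 7.45% of all genes for that direction and 7.61% for the other. DESeq2 passed 0 members, where 0.693% of genes passed as higher and 0.708% as lower. The members divided evenly, 5 to each side of 0. Their median log2 fold change was 0.04, beside 0.00 over all tested genes. With 10 members, a count of 1 is not a result about the group.

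Rbp4 was the member with the smallest p. It lies on chromosome 19, 38116629 to 38125281 (GENCODE M21 on GRCm38, minus strand). It was at 209.9, 175.6 and 162.8 CPM in WT and at 245.9, 230.8 and 277.9 CPM in ++Oxtr. Every ++Oxtr library thus lay above every WT library. The means were 182.8 ± 24.4 and 251.5 ± 24.1 CPM (SD, n = 3), a fold of 1.38 and a log2 fold change of 0.46 (SE 0.12, 95% interval 0.17 to 0.75). The adjusted p was 0.381 by edgeR and 0.0622 by DESeq2, and the exact 2-sided permutation p over libraries was 0.1, the smallest that 3 against 3 allow. Without WT replicate 10 the DESeq2 adjusted p was 0.00302, and without any other library it was between 0.0744 and 0.348.

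When libraries were scaled to the summed adipocyte markers in place of TMM factors, the Rbp4 difference was 0.27 (SE 0.18) and the groups overlapped. This scaling shifted the median of all tested genes to -0.21, so Rbp4 stayed above that median. Per 100 CPM of adipocyte markers Rbp4 stood at 0.253, 0.238 and 0.203 in WT and 0.253, 0.232 and 0.349 in ++Oxtr. The marker sum itself was 79050 ± 4648 CPM in WT and 92150 ± 10980 CPM in ++Oxtr (SD, n = 3), and the desaturase Scd1 made up much of it, at 29600 to 60080 CPM. Scd1 had a log2 fold change of 0.51 (SE 0.24), while the median over the 15 markers was 0.02. This scaling therefore follows Scd1 in large part and is not a measure of adipocyte content alone. The part of Scd1 in the smaller Rbp4 difference was not tested.

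Lep had the lowest fitted value of the members, with a spread to match. It lies on chromosome 6, 29060220 to 29073877 (plus strand). It was at 217.2, 665.7 and 623.4 CPM in WT and at 357.8, 251.6 and 61.4 CPM in ++Oxtr. The WT replicate 10 library lay below 2 of the ++Oxtr libraries, and ++Oxtr replicate 9 lay below all others. The highest library held 10.8 times the level of the lowest, and the range was 3.06-fold within WT and 5.83-fold within ++Oxtr. The log2 fold change was -1.17 (SE 0.68, 95% interval -2.80 to 0.47), at an edgeR adjusted p of 0.662 and an exact permutation p of 0.3. It was -0.72 without ++Oxtr replicate 9, -1.68 without ++Oxtr replicate 7 and -1.52 without WT replicate 10 (edgeR adjusted p = 0.62). In the last of these fits the groups did not overlap, because the WT library that lay among ++Oxtr was the one left out. The share of all genes without overlap in that fit was not computed.

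Adipoq was the steadiest of the abundant members. It lies on chromosome 16, 23146536 to 23158028 (plus strand). It was at 2820, 2492 and 2289 CPM in WT and at 2706, 2280 and 2581 CPM in ++Oxtr, so the groups overlapped almost fully. The log2 fold change was -0.01 (SE 0.13), with a 95% interval of -0.32 to 0.31. The sign was not stable, at 0.02 with upper quartile factors. The SD of log2 CPM within groups was 0.14 for Adipoq, larger than in 33.3% of tested genes. It was 1.15 for Lep and 1.22 for Lcn2, larger than in 97.2% and 97.6% of genes, where the median gene had 0.19.

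Retn was higher on average in ++Oxtr with overlapping groups. It lies on chromosome 8, 3655770 to 3660110 (plus strand). It was at 987.7, 942.8 and 677.9 CPM in WT and at 1013, 906.5 and 1329 CPM in ++Oxtr. The lowest library was WT replicate 12 and the highest ++Oxtr replicate 9. The log2 fold change was 0.32 (SE 0.20), at an edgeR adjusted p of 0.67 and an exact permutation p of 0.4. It was 0.14 without ++Oxtr replicate 9 and 0.13 with libraries scaled to the adipocyte markers.

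**Figure D2:**
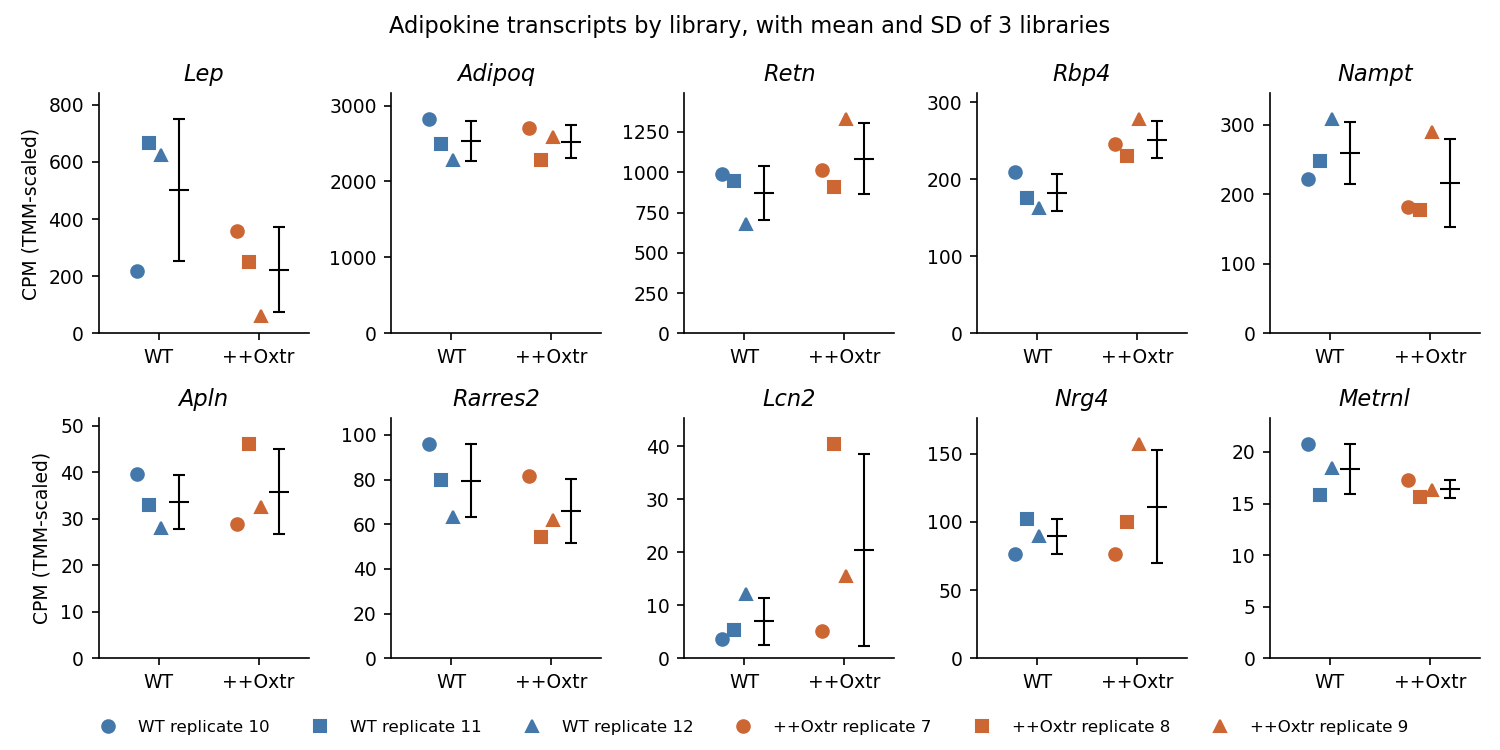
CPM (TMM-scaled, linear axes from 0) of each adipokine by library, with the mean and SD of 3 libraries per group in black. The groups are apart for Rbp4, at 162.8 to 209.9 CPM in WT and 230.8 to 277.9 CPM in ++Oxtr, and overlap for the other 9 members.

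Lcn2 had the highest fitted value of the members and the fewest reads. It lies on chromosome 2, 32384633 to 32388252 (minus strand). The reads numbered 60, 76 and 184 in WT, and 98, 615 and 229 in ++Oxtr. In CPM these were 3.54, 5.27 and 12.1 for WT and 5.2, 40.5 and 15.5 for ++Oxtr. The ++Oxtr replicate 8 library stood far above the rest, and ++Oxtr replicate 7 lay within the WT range. The log2 fold change was 1.55 (SE 0.79, 95% interval -0.35 to 3.45), at an edgeR adjusted p of 0.626 and an exact permutation p of 0.3. It was 0.56 without ++Oxtr replicate 8, and 2.22 without WT replicate 12.

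Most markers of epithelium were, like Lcn2, highest in ++Oxtr replicate 8. Of 10 epithelial markers 8 were highest in ++Oxtr replicate 8, as were 9 of 10 markers of multiciliated epithelium, and 0 of 10 neutrophil markers were. Epcam, an adhesion protein of epithelia, was at 0.41, 0.35 and 4.39 CPM in WT and at 0.16, 30.3 and 3.85 CPM in ++Oxtr. Cdh1, the epithelial cadherin, was at 0 to 1.24 CPM in WT and 0.05 to 10.9 CPM in ++Oxtr. The epithelial list summed to 24.6 to 62.8 CPM in WT and 47.0 to 150.1 CPM in ++Oxtr, and the multiciliated list to 80.6 to 116.0 CPM and 83.1 to 204.4 CPM. Both sums were highest within WT in replicate 10, the library with the least Lcn2. There Krt19, Krt8, Krt7 and Krt18 stood at 24.5, 12.5, 11.1 and 10.9 CPM, and Tppp3 at 108.7 CPM. These genes made up most of both sums in that library. Krt8, Krt18 and Krt19 were also listed as mesothelial markers. Foxj1, a regulator of motile cilia, had 0 reads in WT replicate 10, and the cilium motor gene Dnah5 had 0 reads in WT replicates 10 and 11. The mean log2 level of the 18 tested genes of both lists stood at -1.54, -1.67 and 0.80 for the WT libraries and at -1.19, 2.62 and 0.98 for ++Oxtr. The 3 libraries with the most Lcn2 were also the 3 highest here, in the same order, while among the other 3 the order differed, with WT replicate 11 lowest here and highest in Lcn2. A fit with that mean level as a further term, added once the data had been seen, gave Lcn2 a log2 fold change of 0.13 (SE 0.25). That term was chosen with the high values of ++Oxtr replicate 8 in view, and the part of epithelium in the Lcn2 level was not tested.

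Neutrophils also make Lcn2. Their 10 markers summed to 33.6 to 62.4 CPM in WT and 40.5 to 75.2 CPM in ++Oxtr, and 8 of 10 were highest in ++Oxtr replicate 9. Of 7 tested, 5 lay above 0 and 2 below it, Mmp9 and Camp, with log2 fold changes of -0.77 and -0.82. Camp had only 2 to 18 reads in a library. S100a8, a calcium-binding protein of neutrophils, had 19, 25 and 38 reads across WT and 77, 28 and 117 across ++Oxtr. Its partner S100a9 had 34, 29 and 101 reads across WT and 237, 96 and 311 across ++Oxtr, with overlapping groups by CPM (S100a9 in ++Oxtr replicate 8 lay below WT replicate 12) and an adjusted p of 0.469 in edgeR and 0.042 in DESeq2. That DESeq2 call was not checked with a library left out. The part of neutrophils in the Lcn2 level was not tested.

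**Figure D3:**
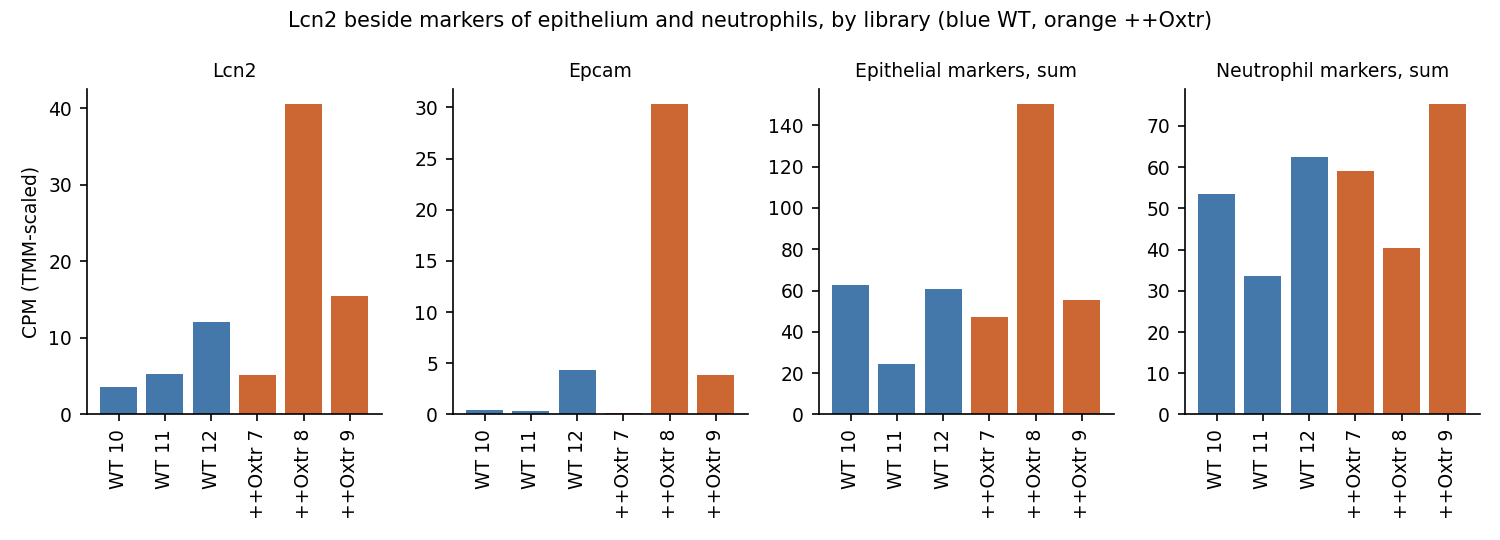
CPM by library (bars from 0, blue WT, orange ++Oxtr) of Lcn2, Epcam, the summed epithelial markers and the summed neutrophil markers. Lcn2, Epcam and the epithelial sum are all highest in ++Oxtr replicate 8 (40.5, 30.3 and 150.1 CPM), while the neutrophil sum is highest in ++Oxtr replicate 9 (75.2 CPM). Mmp9, lower on average in ++Oxtr, makes up most of the neutrophil sum in WT.

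Nampt and Rarres2 were lower on average in ++Oxtr, with overlapping groups. Nampt, the enzyme of nicotinamide salvage (chromosome 12, 32819545 to 32853349) was at 221.5, 247.7 and 308.2 CPM in WT and 181.9, 176.9 and 289.1 CPM in ++Oxtr. The ++Oxtr libraries were split, with replicates 7 and 8 below every WT library and replicate 9 among them. The log2 fold change was -0.26 (SE 0.22, edgeR adjusted p = 0.756), and it was -0.53 without ++Oxtr replicate 9. Rarres2 (chromosome 6, 48569696 to 48572789) was at 95.9, 79.6 and 63.1 CPM in WT and 81.8, 54.2 and 61.9 CPM in ++Oxtr, with a log2 fold change of -0.27 (SE 0.20, edgeR adjusted p = 0.715). In the fit with the epithelial term the Rarres2 value was -0.0041, and it was -0.46 without ++Oxtr replicate 7.

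Nrg4, the ERBB ligand, was set apart in 1 library. It lies on chromosome 9, 55220222 to 55326844, and was at 76.3, 102.2 and 89.9 CPM in WT and at 76.7, 99.99 and 157.2 CPM in ++Oxtr. Replicates 7 and 8 of ++Oxtr lay within the WT range and replicate 9 above it. The log2 fold change was 0.31 (SE 0.26, edgeR adjusted p = 0.761) and -0.02 without ++Oxtr replicate 9. Brown and beige adipocyte markers, summed over 8 genes, were at 28.3 to 33.5 CPM in WT and 43.3 to 66.4 CPM in ++Oxtr, and also highest in ++Oxtr replicate 9. Of 5 tested, 4 were higher in ++Oxtr with no overlap and 1 lower with no overlap, beside 7.45% and 7.61% of all tested genes. The coactivator Ppargc1a was at 5.30, 6.24 and 6.09 CPM in WT and at 11.1, 12.2 and 22.5 CPM in ++Oxtr, with an adjusted p of 0.319 in edgeR and 0.00318 in DESeq2. Cox8b, a respiratory chain subunit, was at 5.36, 9.15 and 6.68 CPM in WT and at 12.9, 11.7 and 27.3 CPM in ++Oxtr (adjusted p = 0.418 in edgeR and 0.042 in DESeq2). The DESeq2 calls of Ppargc1a and Cox8b were not checked with a library left out. Ppargc1a and Cox8b were both highest in replicate 9, as Nrg4 was, but not all markers were. Cox7a1, a subunit like Cox8b, was at 0.21 to 1.38 CPM in WT and 1.58 to 1.75 CPM in ++Oxtr, highest in replicate 7. Dio2 was at 0.06 to 0.92 CPM in WT. It was also highest in ++Oxtr replicate 7, at 1.59 CPM beside 1.55 CPM in replicate 9. Both genes had few reads. Those of Cox7a1 were 11, 3 and 21 in WT and 33, 24 and 25 in ++Oxtr. Those of Dio2 were 1, 7 and 14 in WT and 30, 18 and 23 in ++Oxtr. Prdm16, the marker on the lower side, was at 16.6, 17.1 and 16.7 CPM in WT. It was at 14.3, 15.7 and 12.7 CPM in ++Oxtr, lowest in replicate 9. Ucp1, the uncoupling protein of brown fat, did not pass the filter, at 0.07 to 0.29 CPM in WT and 2.97, 0.46 and 0.27 CPM in ++Oxtr. Whether brown or beige adipocytes had a part in the Nrg4 level was not tested.

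Apln (chromosome X, 48025146 to 48034853) was at 28.1 to 39.7 CPM in WT and 28.8 to 46.1 CPM in ++Oxtr, with a log2 fold change of 0.09 (SE 0.20, edgeR adjusted p = 0.934), which was -0.13 without ++Oxtr replicate 8. Metrnl (chromosome 11, 121701544 to 121716306) was at 15.9 to 20.7 CPM in WT and 15.6 to 17.3 CPM in ++Oxtr, with a log2 fold change of -0.16 (SE 0.13, edgeR adjusted p = 0.756). Both overlapped between the groups. Their 95% intervals, -0.39 to 0.57 for Apln and -0.47 to 0.15 for Metrnl, hold differences of either sign.

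The receptors of the adipokines were measured in the same libraries. Of 16 receptors and binding proteins 14 were tested, 5 above and 9 below 0, and the median log2 fold change was -0.04. At an unadjusted edgeR p under 0.05 there were 0 on the higher side and 1 on the lower side, the chemerin receptor Cmklr1. Over all tested genes the shares were 4.44% and 4.47%. Cmklr1 was at 194.1, 165.2 and 202.7 CPM in WT and at 146.3, 137.5 and 128.1 CPM in ++Oxtr, with no overlap. Its log2 fold change was -0.45 (SE 0.10). The adjusted p was 0.348 in edgeR, and DESeq2 passed it at 0.025. The DESeq2 call was lost without WT replicate 10 (0.143), WT replicate 12 (0.231), ++Oxtr replicate 8 (0.145) or ++Oxtr replicate 9 (0.113). Macrophages carry this receptor, and their 10 markers summed to 1575 to 1979 CPM in WT and 1251 to 1459 CPM in ++Oxtr, with all 10 on the lower side. Of these, 6 were at an unadjusted edgeR p under 0.05 and 5 had no overlap, beside 4.47% and 7.61% of all tested genes. By DESeq2 2 passed as lower, beside 0.708% of genes, and by edgeR 0 passed an adjusted p of 0.05. Cd163, Adgre1 and Cd68 among the markers had log2 fold changes of -0.89, -0.49 and -0.47. For Cd163 the adjusted p was 0.348 in edgeR and 0.00361 in DESeq2, not checked with a library left out. The part of macrophages in the Cmklr1 level was not tested.

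The other chemerin receptors were low. Gpr1 was at 1.24 to 2.75 CPM in WT and 0.46 to 1.65 CPM in ++Oxtr, and Ccrl2, which binds chemerin without signalling, at 3.67 to 4.44 CPM and 3.08 to 4.92 CPM. The adiponectin receptors Adipor1 and Adipor2 stood at -0.04 (SE 0.10) and -0.11 (SE 0.11) on the log2 scale of the difference, and Cdh13, which holds adiponectin at the cell surface, at 0.07 (SE 0.08). Adipor2 was the most abundant by CPM, at 1007 to 1224 CPM over the 6 libraries. The leptin receptor Lepr was at 9.63 to 13.4 CPM in WT and 8.49 to 13.4 CPM in ++Oxtr. Aplnr, the apelin receptor, had a log2 fold change of -0.17 (SE 0.30).

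For resistin, the reported binding partners Cap1 and Tlr4 differed by -0.07 (SE 0.09) and -0.04 (SE 0.18) on the log2 scale, within their errors. Stra6, the membrane receptor of Rbp4, was at 0.65 to 1.38 CPM in WT and 0.58 to 2.70 CPM in ++Oxtr. Neither the related Stra6l nor Erbb4 passed the filter. Erbb4, the Nrg4 receptor, was at 0.18 to 0.55 CPM in WT and 0.27 to 0.92 CPM in ++Oxtr. Erbb3, a further ERBB receptor, was at 2.77 to 4.06 CPM in WT and 3.03 to 10.5 CPM in ++Oxtr, highest in ++Oxtr replicate 8. Slc22a17, a receptor of Lcn2, had a log2 fold change of 0.21 (SE 0.15, edgeR adjusted p = 0.696), with no overlap between groups. Kit, reported to bind Metrnl, was at 28.0 to 32.9 CPM in WT and 31.5 to 41.1 CPM in ++Oxtr, with a log2 fold change of 0.23 (SE 0.12).

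**Figure D4:**
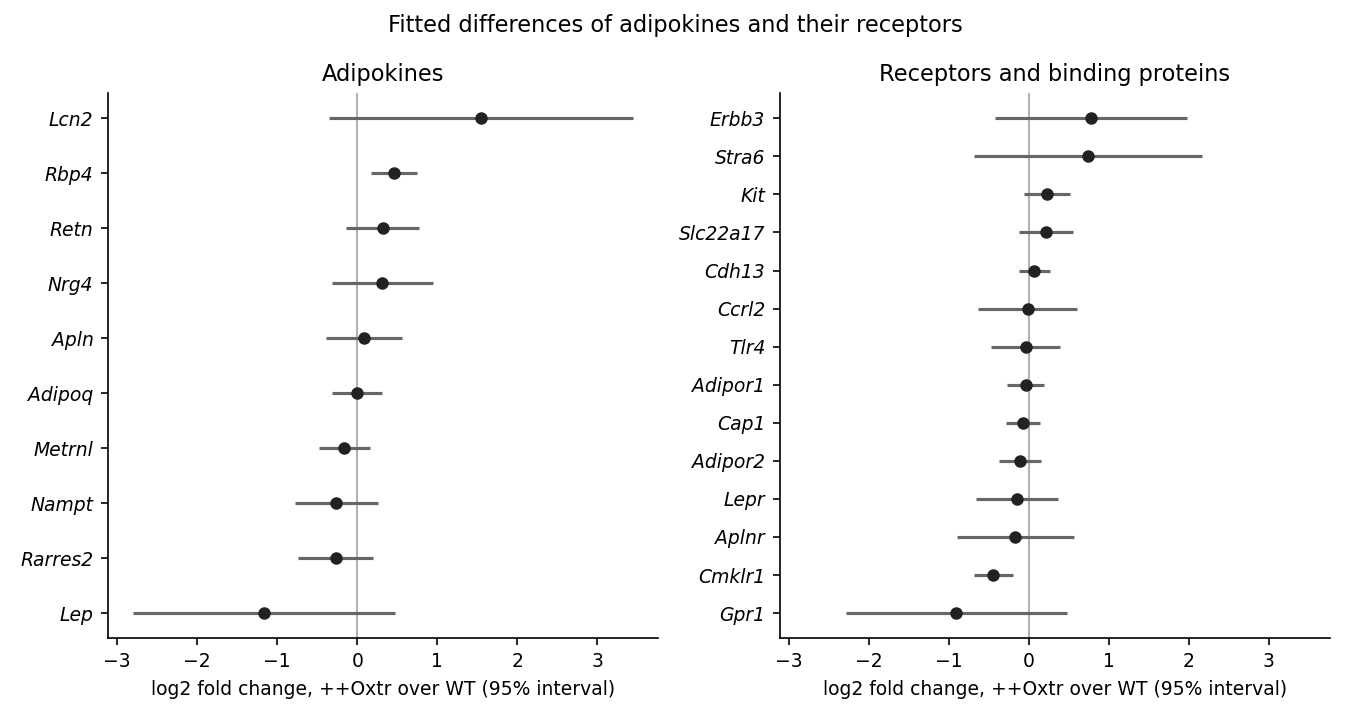
Log2 fold change of ++Oxtr over WT (points) with 95% intervals from the edgeR fit (lines), for the 10 adipokines and the 14 tested receptors and binding proteins. The intervals of Rbp4 (0.17 to 0.75) and Cmklr1 (-0.69 to -0.20) lie to 1 side of 0 and all others span it.

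Within the resistin family the 3 tested genes went different ways. Retnla, a secreted product of alternatively activated macrophages, was at 402.8, 303.7 and 371.8 CPM in WT and at 227.4, 166.6 and 166.7 CPM in ++Oxtr. All 3 ++Oxtr libraries lay below WT. Its log2 fold change was -0.94 (SE 0.16). The adjusted p was 0.245 in edgeR, DESeq2 passed it at 2.7e-05, and the DESeq2 adjusted p was at most 0.0065 with any 1 library left out. Retnlg, which neutrophils make and which is also 1 of the neutrophil markers, was at 1.71, 1.73 and 1.31 CPM in WT and at 4.78, 1.98 and 7.22 CPM in ++Oxtr, with a log2 fold change of 1.55 (SE 0.48, edgeR adjusted p = 0.442). Retnlb had 0 reads in all libraries, which allows up to 0.156 to 0.21 CPM. Retn, with a log2 fold change of 0.32, lay between its relatives.

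Metrn, the relative of Metrnl, was at 2.82 to 3.77 CPM in WT and 2.23 to 3.08 CPM in ++Oxtr. Of the neuregulins, Nrg4 was the only one above 3 CPM, with Nrg2 at 0.59 to 1.11 CPM in WT and 1.21 to 2.44 CPM in ++Oxtr. Nrg1 did not pass the filter and Nrg3 had 0 reads. Of 7 tested C1q and TNF related proteins, relatives of adiponectin, 6 lay below 0, and the median was -0.28. Of the 6, 2 were at an unadjusted edgeR p under 0.05, beside 4.47% of all tested genes on that side. C1qtnf9 was at 71.1, 87.0 and 90.2 CPM in WT and at 64.2, 65.7 and 64.5 CPM in ++Oxtr (edgeR adjusted p = 0.418). C1qtnf1 had a log2 fold change of -0.40 (SE 0.16).

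Genes around the members were read from lists of their pathways. The counts of each list stand beside 4.44% of all tested genes at an unadjusted edgeR p under 0.05 on the higher side and 4.47% on the lower. Of 10 genes of leptin signalling inside cells 9 lay above 0; the median was 0.15, and 2 of the 9 were at an unadjusted edgeR p under 0.05, Irs1 (0.61, SE 0.20) and Sh2b1 (0.21, SE 0.08), which link receptors to insulin and leptin signals. For Jak2, the kinase of the leptin receptor, the difference was 0.15 (SE 0.11) on the log2 scale. Of 8 genes that fold and secrete adiponectin 6 lay below 0; the median was -0.12, and 0 were under that p. Their first, the oxidase Ero1a, had -0.12 (SE 0.13).

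Of 15 genes of NAD salvage and use 11 lay above 0 and Nampt below it; the median was 0.19. Only Nmnat3, a mitochondrial enzyme of NAD synthesis, was at an unadjusted edgeR p under 0.05, at 12.2 to 14.0 CPM in WT and 14.7 to 24.2 CPM in ++Oxtr. Of 11 retinol transport and storage genes 6 were tested, and Rbp4 was the 1 at that p. The list for chemerin processing had 6 tested genes with a median of -0.39. The protease Prtn3 was at 11.6, 8.87 and 14.2 CPM in WT and at 3.45, 4.21 and 2.90 CPM in ++Oxtr, with no overlap. The adjusted p was 0.122 in edgeR, and DESeq2 passed it at 2e-06, a call kept without any 1 library except WT replicate 11, for which DESeq2 gave no value. Ctsk, cathepsin K, had a log2 fold change of -0.51 (SE 0.14).

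Other proteins secreted by fat held 19 tested genes of 25, with a median of -0.17, 3 at an unadjusted edgeR p under 0.05 on the higher and 3 on the lower side. Cfd (adipsin), the first of the list, was at 7181 to 9739 CPM in WT and at 7654, 7580 and 14470 CPM in ++Oxtr. Haptoglobin (Hp), which binds free hemoglobin, was at 2834, 1996 and 1789 CPM in WT and at 1060, 1206 and 577.2 CPM in ++Oxtr, with no overlap. Its adjusted p was 0.37 by edgeR and 0.00165 by DESeq2, and the DESeq2 value was at most 0.049 with any 1 library left out. The chemokine Ccl2 was at 4.30 to 6.42 CPM in WT and 8.43 to 15.7 CPM in ++Oxtr (adjusted p = 0.0310 by DESeq2 and 0.361 by edgeR). That DESeq2 call was lost without WT replicate 12, ++Oxtr replicate 7 or ++Oxtr replicate 9 (0.193, 0.0895 and 0.20), and it had no value without WT replicate 11. Sfrp5, a WNT antagonist secreted by fat, was at 4.36, 6.93 and 11.9 CPM in WT and at 4.19, 2.24 and 1.01 CPM in ++Oxtr, at an edgeR adjusted p of 0.483.

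Among 12 adipocyte transcription factors, which drive many of these hormones, the median was -0.01, with 1 at an unadjusted edgeR p under 0.05 on the higher and 3 on the lower side. Pparg, the master regulator of adipocytes, had a log2 fold change of 0.00 (SE 0.10). Hif1a, the oxygen-regulated factor, had -0.34 (SE 0.09) and Rxra, the partner of Pparg, -0.29 (SE 0.09). Of 60 tested genes that the deposited annotation places in adipocytokine signalling, 4 were on the higher and 3 on the lower side at that p, with a median of -0.01. Of 32 tested genes with the term hormone activity 1 was on the higher and 4 on the lower side. No list was tested as a set.

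**Figure D5:**
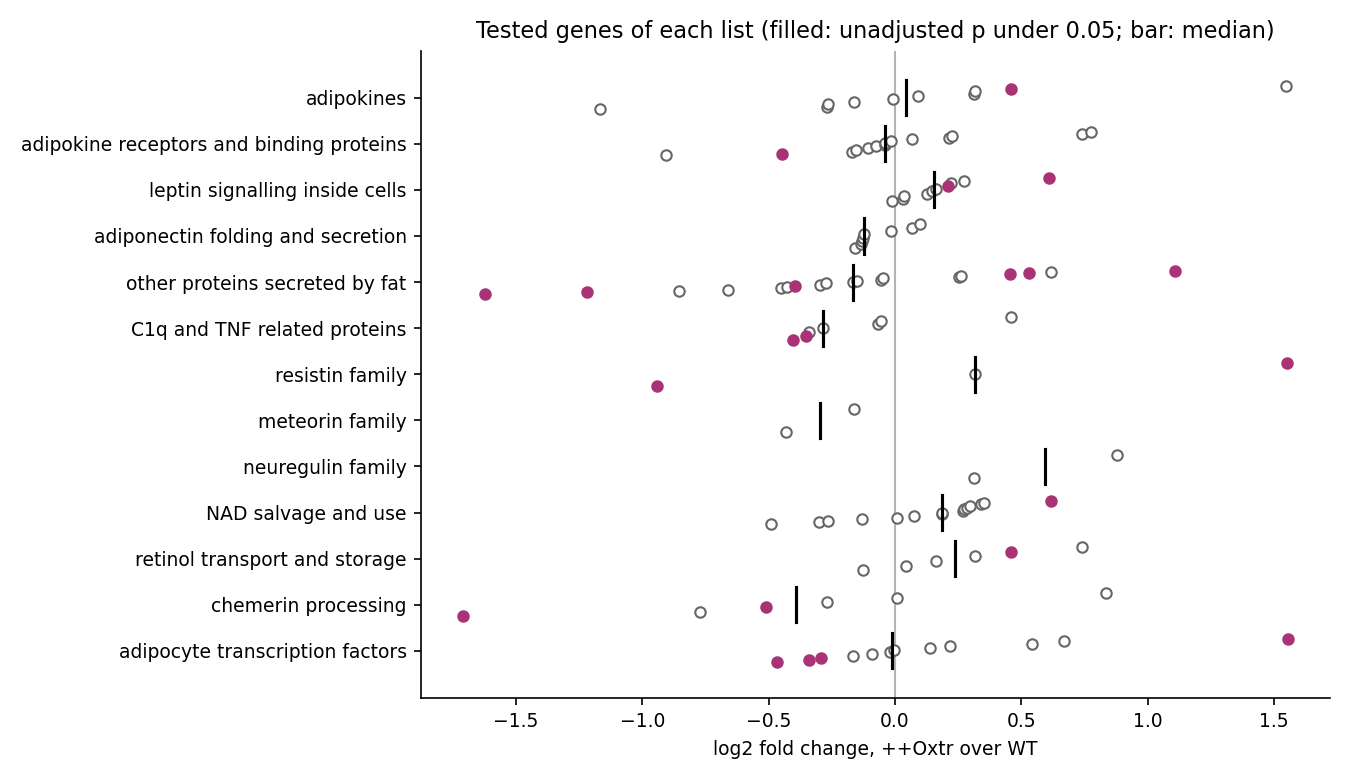
Log2 fold change of ++Oxtr over WT for every tested gene of the adipokine list and 12 related lists, with filled points for an unadjusted edgeR p under 0.05 and a bar at each median. The adipokine median is 0.04, and those of the other lists run from -0.39 (chemerin processing) to 0.60 (the 2 tested neuregulins).

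Some genes followed a member closely over the 6 libraries, as a description with the libraries and their depth in common. They were picked for the highest correlations in a search of all genes over few libraries, so high values come with the search itself. Among 9515 genes of at least 10 CPM on average, Fam20c, a kinase of secreted proteins, had the pattern most like Lep (Pearson r of log2 CPM 0.998, n = 6). Fam20c was at 28.2, 52.9 and 49.5 CPM in WT and at 34.9, 30.6 and 12.8 CPM in ++Oxtr, low in the same libraries as Lep. Tsr1 and Cttn came next for Lep (0.994 and 0.988), over much narrower ranges. Tsr1 spanned 12.1 to 17.9 CPM and Cttn 124 to 179.3 CPM, where Lep spanned 61.4 to 665.7 CPM. Mga, Cdadc1 and the phosphodiesterase gene Pde3b were closest to Adipoq (0.990, 0.981 and 0.977), and Usp42, Fam162a and the respiratory chain gene Uqcrb to Retn (0.986, 0.984 and 0.980). Pdxk, Col4a4 and Synm were closest to Lcn2 (0.980, 0.971 and 0.969), and Pdxk had its highest value, 55.3 CPM, in ++Oxtr replicate 8 as Lcn2 did.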

How the data were processed

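RNA from white adipose tissue was sequenced in 3 WT and 3 ++Oxtr libraries, grouped by sample title. The deposited table holds, per the file headers, unnormalised read counts and FPKM for each gene and library. The authors' FPKM equals the count over gene length and column sum (largest relative error 5.1e-15). The submitters' processing notes name mm10. The aligner, counter and strand setting were not given in the sources used here, so reads of overlapping genes cannot be told apart. Positions in the table are not those of GRCm38, so positions printed here are from GENCODE M21, matched by gene ID. Promoters are from RefSeq on GRCm38.p6.

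Counts were tested for 13566 genes that passed filterByExpr with edgeR 4.0.16 under R 4.3.3, by its quasi-likelihood test (TMM factors, robust dispersion, no covariates) and Benjamini-Hochberg adjustment over all of them, at a threshold of 0.05. DESeq2 1.42.0 and limma 3.58.1 were alternatives. The steps were tested on simulated data. Exact 2-sided permutation tests used the 20 assignments of 6 libraries on log2(CPM + 0.5). CPM are TMM-scaled, and intervals are 95% from the fit. Nothing in the labels says that replicates are separate animals, so p-values measure the spread between these libraries, which may be technical. A floor of 3 counts covers counting error only. Libraries held 14314517 to 19186696 counts.

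The members and the gene lists were chosen with earlier results of these data known. The genes named are all members, their receptors, Oxtr, the first gene and up to 3 of smallest p in each pathway list, the sum and first 2 genes of each marker list reported, and the 3 genes closest in pattern, by Pearson correlation of log2 CPM, to Lep, Adipoq, Retn and Lcn2. Others (Scd1, Cidea, Cd163, Ppargc1a, Cox8b, Dio2, Prdm16, Krt7, Krt8, Krt18, Krt19, Tppp3, Mmp9, Camp, Cebpa, Cebpd, Retnlb, Nrg2 and Nrg3) were chosen after their values were seen. Lists taken from the deposited annotation were added after the table was seen. Of 2 rows named Nrg1 the first was used.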

Additional observations from a re-analysis of the deposited data

How the results depend on the processing

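No paired analysis was possible because WT and ++Oxtr have no replicate number in common. The epithelial covariate was chosen after seeing the data. No member passed an adjusted p of 0.05 under these alternatives, with 1 exception: Rbp4 by DESeq2 without WT replicate 10 (adjusted p = 0.00302), a fit added after seeing the data. Over all genes edgeR passed 0, against 190 with DESeq2 and 10 with library sizes from the adipocyte markers. At an unadjusted p under 0.05 edgeR had 603 genes higher and 606 lower; the split was 764 to 497 with upper quartile factors, 93 to 1877 with library sizes from the adipocyte markers, and 425 to 903 or 433 to 898 with limma on FPKM (pseudocounts 0.5 and 0.1). Of members at an unadjusted p under 0.05, edgeR gave 1 and limma-voom 2 (Rbp4 and Nampt), where limma-voom had 705 genes higher and 738 lower. Leaving out each library gave 1 to 3, always with Rbp4, and 1 to 3 members whose groups did not overlap. Both counts reached 3 without ++Oxtr replicate 7, where 860 genes of 13838 were higher and 625 lower at that p. Groups separate more readily with a library left out, and the share of all genes without overlap was not computed there. Rbp4 missed the unadjusted threshold only with library sizes from the adipocyte markers (0.27), where Rarres2 met it and where Metrnl in place of Rbp4 had groups that did not overlap, and the median of the members was -0.17 in place of 0.04. With a library left out that median ran from -0.04 to 0.14. Lep, Retn, Rbp4, Nampt, Rarres2, Lcn2 and Metrnl kept their sign under all 16 alternatives each. Adipoq changed sign with limma-voom (0.0437), upper quartile factors (0.0213) and the covariate (0.11), and ran from -0.0691 to 0.0781 with a library left out. Apln changed sign with library sizes from the adipocyte markers (-0.13) and the covariate (-0.0455), and ran from -0.13 to 0.23 with a library left out. Nrg4 ran from -0.0194 to 0.52 with a library left out. The causes were not tested. Adipoq and Retn were first and second in all 6 libraries by FPKM and by CPM. Depth limits Lcn2, with 60 reads in its lowest library, and the receptors under 3 CPM.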
